A study of Mus musculus with 20 samples.

Results

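The genes described here encode the machinery that brings proteins into mitochondria and keeps them in working order. They are the genes whose symbols begin with Timm or Tomm followed by a number, together with Samm50, Pmpca, Pmpcb, Chchd4, Gfer, Hspd1, Hspe1, Hspa9, Trap1, Clpp, Clpx, Lonp1, Afg3l2, Spg7, Yme1l1, Phb and Phb2. In the probe annotation 42 genes fit this rule, and 39 of them were read from a probe set that names 1 gene, out of 18193 genes read in all. Phb, Tomm5 and Tomm6 share every probe set with other genes and have no value here. A gene was read from its brightest such probe set, and the 39 members have 87 of them. The mean signal of 37 members lay at or above the median of all probe sets (4.21 on the log2 scale), and Timm8a2 and Tomm20l lay below it.

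Liver RNA of 20 male C57BL/6J mice (the sample labels spell the strain C56BL/6J) was hybridized to Affymetrix mouse genome arrays, 1 mouse per array and 5 mice per group. The CL + AX mice ate the CL diet with 0.02% astaxanthin, a xanthophyll carotenoid, the CL + VE mice ate the CL diet with 0.02% vitamin E, the CL mice ate the CL diet alone and the NC mice ate CRF-1 normal chow. The CL diet took 60% of its calories from fat and held 0.5% cholate as the sodium salt beside 1.25% cholesterol. Feeding began at 7 weeks of age and lasted 12 weeks for every mouse, and food was withdrawn 2 h before the livers were collected. The diet is used as a model of nonalcoholic steatohepatitis, and the chow and the CL diet differ in several components at once, which cannot be told apart.

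Almost all mitochondrial proteins are encoded in the nucleus, made in the cytosol and imported. The TOM complex forms the entry pore in the outer membrane, from which the SAM complex, the small Tim chaperones of the intermembrane space, the TIM22 complex and the TIM23 complex sort proteins to their compartments. In the matrix the presequence is cut off by the mitochondrial processing peptidase, chaperones fold the protein, and the Clp, Lon and AAA proteases remove proteins that fail to fold. Hepatocytes are rich in mitochondria, and the same chaperones and proteases are known as targets of the mitochondrial unfolded protein response.

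The values are log2 MAS5 signals after quantile normalization, and a fold change is a difference between group means of these values, with its standard error (SE). Tests are limma's moderated tests, with Benjamini-Hochberg adjusted p over the 45037 probe sets tested, and a gene was called at an adjusted p under 0.05. Before normalization the arrays had median signals of 26.4 to 27.7 in CL + AX, 17 to 20.7 in CL + VE, 19.4 to 24.8 in CL and 13 to 18.8 in NC livers. The log2 ratio of the 3' to the 5' Gapdh control probe set, a measure of RNA integrity and labelling, was -0.14 ± 0.05 in CL + AX, -0.03 ± 0.12 in CL + VE, -0.17 ± 0.06 in CL and 0.57 ± 0.14 in NC arrays (SD, n = 5 each), so every comparison with NC runs alongside this difference. The same ratio of the Actb control probe sets was 1.16 ± 0.07 in CL + AX, 1.43 ± 0.08 in CL + VE, 1.14 ± 0.09 in CL and 1.66 ± 0.17 in NC arrays. That of the Dap control, a bacterial sequence that reads RNA added before labelling, was 0.91 ± 0.1 in CL + AX, 1.07 ± 0.43 in CL + VE, 0.97 ± 0.16 in CL and 2.96 ± 0.15 in NC arrays (SD, n = 5 each). All 3 ratios were highest in NC arrays, and that of Actb was also higher in CL + VE than in CL + AX or CL arrays. The part of these differences in the results below was not tested. The 13 hepatocyte markers read had a median fold change of -0.03 between CL and NC, and their summed signal was 115000 to 121000 in CL and 116000 to 121000 in NC livers. Of the 16 macrophage markers read, 15 were called higher in CL livers, and their summed signal was 13600 to 34200 in CL and 2560 to 7650 in NC livers. Also called higher were 8 of 10 stellate, 6 of 10 endothelial, 6 of 11 lymphocyte and 1 of 5 bile duct markers. No marker in these lists was called lower. Of all genes read, 12% were called higher and 11.3% lower. The part of these cells in the members' differences was not tested either. In whole liver, fewer cells of a type and less RNA per cell cannot be told apart.

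Between CL and NC livers, 17 of the 39 members were called lower in CL, 2 were called higher (Clpx and Timm29) and 20 were not called. Over all probe sets 8.29% were called lower and 9.28% higher, and among the genes with a mean signal at or above the median 16.9% were called lower and 17.6% higher. In the 37 members above that median, 45.9% were called lower and 5.41% higher. The median fold change of the 39 members was -0.21, against -0.04 over all genes. In 10 members every CL array lay below every NC array, and in 2 every CL array lay above every NC array. Over all probe sets 5.82% lay wholly below and 6.11% wholly above. Among the 11398 genes with a mean signal at or above the median, 1336 lay wholly below and 1376 wholly above. The median of the members on an array, taken relative to the median of all genes, was 3.4 to 3.637 in CL livers and 3.894 to 4.012 in NC livers, so that these groups did not overlap. The number of calls depended on the scaling. With the signals as deposited, where the median of all genes was itself 0.389 above 0, 6 members were called higher and 2 lower, and the members' median was -0.28 relative to all genes. Clpx, Timm29, Timm44 and Phb2 were still called in that setting, at 1.62, 0.94, -0.55 and -0.43, and the rest of the members called after quantile normalization were not.

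**Figure D1:**
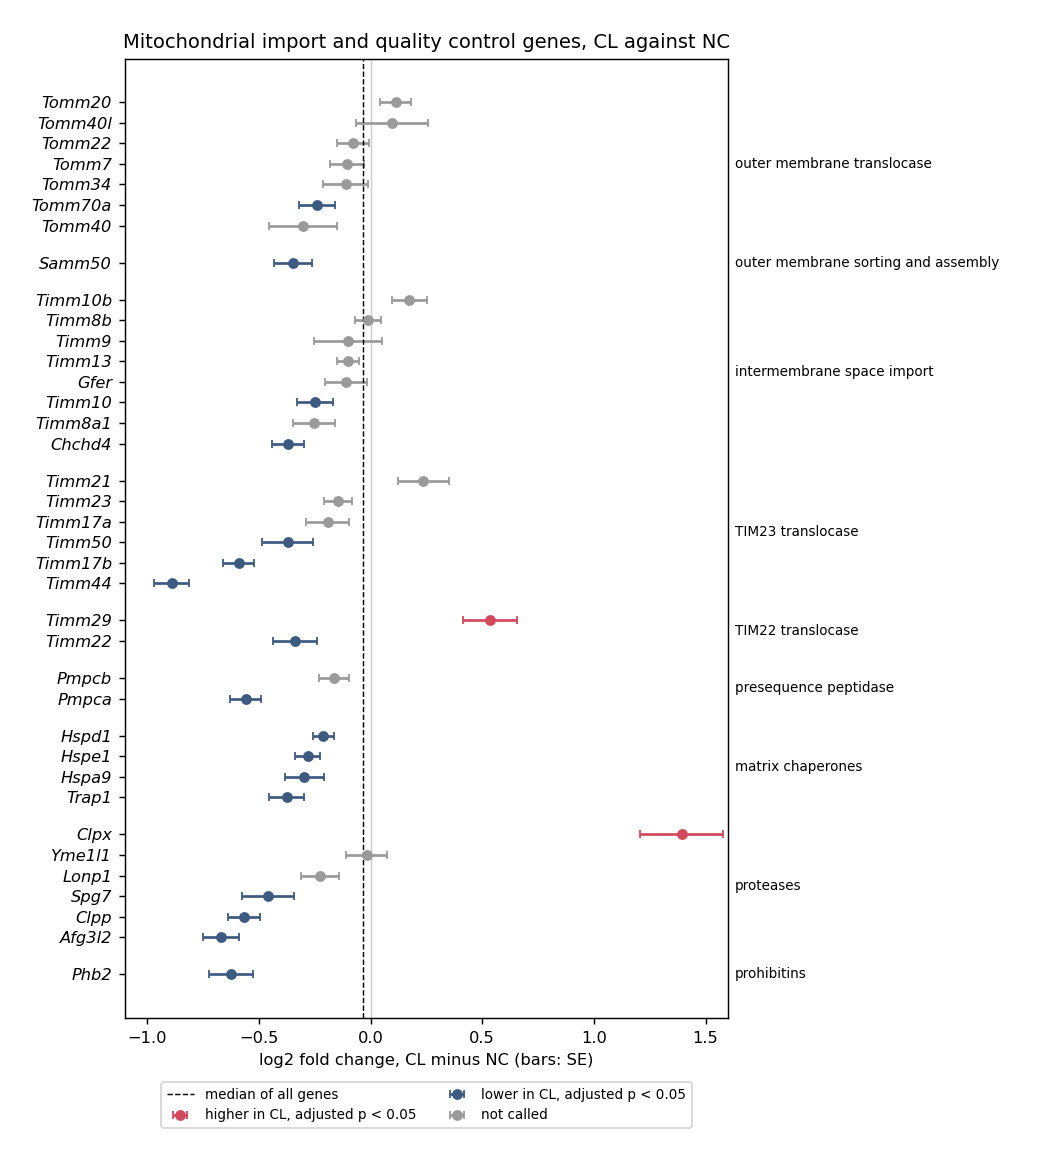
Log2 fold change of CL minus NC livers (horizontal axis) for the 37 members with a mean signal at or above the median, grouped by role. Points are differences between group means, bars are SE, colours mark the call, and the dashed line is the median of all genes. All 4 matrix chaperones lie below 0, and Clpx, at 1.39, lies far above the other members.

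The 6 largest falls were all in members of the inner membrane and the matrix. In the TIM23 group, which makes the channel and the motor for proteins bound for the matrix, 3 of 6 members were called lower and none higher. Timm44, the peripheral subunit that ties the import motor to the channel, had log2 signals of 9.21, 9.03, 9.01, 8.81 and 9.07 in CL livers, against 9.95, 9.94, 9.89, 10 and 9.8 in NC livers. The groups were far apart, and the fold change was -0.89 (SE 0.078, adjusted p = 1.69e-07), a level in CL livers 0.54 times that in NC livers. Its 3 probe sets were all called lower, with fold changes of -0.89, -0.76 and -0.39.

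Timm17b, a subunit of the channel itself, had log2 signals of 9.08, 9.02, 9.14, 9.34 and 9.15 in CL livers, against 9.75, 9.88, 9.68, 9.7 and 9.67 in NC livers. Every CL liver was below every NC liver (-0.59, SE 0.069, adjusted p = 4.09e-06), and its further probe set fell by 0.46. Timm50, the receptor of the channel, also fell (-0.37, SE 0.115, adjusted p = 0.0268), although its groups overlapped. Timm17a, the paralog of Timm17b, and Timm23, the channel's core, were not called (-0.19, adjusted p = 0.195, and -0.15, adjusted p = 0.123). Timm21, which links the channel to the outer membrane, was not called either (0.23, adjusted p = 0.177). Among the called members, the brightest probe sets of Timm44, Timm17b, Phb2 and Samm50 carry the suffix _x_at. Affymetrix gives it to sets with probes that can match other transcripts. Each of these genes also has a probe set without that suffix that was called in the same direction.

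The processing peptidase, which cuts the presequence, has a catalytic subunit, Pmpcb, and a subunit that recognizes the substrate, Pmpca. Pmpca had log2 signals of 8.41, 8.37, 8.23, 8.41 and 8.4 in CL livers, against 8.98, 8.83, 8.85, 8.9 and 9.06 in NC livers. All 5 CL livers were lower than all 5 NC livers (-0.56, SE 0.069, adjusted p = 7.55e-06), and the further probe set was called too (-0.33, adjusted p = 0.00811). Pmpcb was not called (-0.16, SE 0.068, adjusted p = 0.106).

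All 4 matrix chaperones were called lower in CL livers, by small amounts. Hspe1, which encodes the small co-chaperonin, had log2 signals of 11.34, 11.4, 11.36, 11.44 and 11.55 in CL livers, against 11.65, 11.74, 11.79, 11.69 and 11.63 in NC livers. Its groups did not overlap (-0.28, SE 0.057, adjusted p = 0.00118). Its dimmer probe set gave a larger difference, with 9.05, 8.93, 8.75, 9.13 and 8.92 in CL livers against 9.52, 9.65, 9.69, 9.66 and 9.76 in NC livers (-0.70, SE 0.099, adjusted p = 3.33e-05). Hspd1, the large chaperonin that Hspe1 caps, had log2 signals of 12.12, 12.06, 12.11, 12.14 and 12.15 in CL livers, against 12.33, 12.35, 12.36, 12.39 and 12.22 in NC livers, again without overlap (-0.21, SE 0.048, adjusted p = 0.00345). Trap1, the mitochondrial member of the Hsp90 family, fell by 0.38 (SE 0.079, adjusted p = 0.00163), and Hspa9, the Hsp70 of the import motor, fell by 0.30 (SE 0.087, adjusted p = 0.0192).

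Among the proteases, the subunits of ClpXP were called in opposite directions. ClpXP is made of Clpp, the proteolytic chamber, and Clpx, the ATPase that unfolds substrates and feeds them into it. Clpp had log2 signals of 9.26, 9.13, 9.23, 9.36 and 9.41 in CL livers, against 9.95, 9.93, 9.78, 9.78 and 9.78 in NC livers, with no overlap (-0.57, SE 0.07, adjusted p = 7.97e-06). Clpx had log2 signals of 11.62, 11.83, 11.96, 11.71 and 11.49 in CL livers, against 10.63, 9.85, 9.58, 10.55 and 11.05 in NC livers. All CL livers were higher than all NC livers (1.39, SE 0.186, adjusted p = 1.81e-05), 2.62 times the NC level, and the NC livers spread over a wider range than any group on the CL diet.

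For both genes the further probe set did not give the same picture. The further probe set of Clpx read 7.97, 8.37, 8.59, 8.32 and 7.14 in CL livers, against 8.52, 8.37, 7.89, 8.34 and 8.18 in NC livers. These values overlapped, with a fold change of -0.18 (SE 0.255, adjusted p = 0.707). The further probe set of Clpp read 9.36, 9.14, 9.46, 9.17 and 9.32 in CL livers, against 9.38, 9.48, 9.53, 9.43 and 9.5 in NC livers, a fold change in the same direction as the first but not called (-0.17, SE 0.085, adjusted p = 0.18). The rise of Clpx therefore rests on 1 of its 2 probe sets, and Clpx was not called by the unequal-variance test that the methods name (adjusted p = 0.0577). With the mean of both probe sets its fold change was 0.60 (adjusted p = 0.0321).

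Afg3l2 and Spg7 encode subunits of the m-AAA protease of the inner membrane. Afg3l2 had log2 signals of 8.39, 8.37, 8.13, 8.29 and 8.36 in CL livers, against 9.02, 9.07, 9.06, 8.91 and 8.82 in NC livers, which did not overlap (-0.67, SE 0.079, adjusted p = 4.37e-06). Its next brightest probe set was called lower too (-0.58, SE 0.115, adjusted p = 0.00101). The dimmest, with a mean log2 signal of 4.64, was at 0.38 and was not called (SE 0.274, adjusted p = 0.397). With the mean of all its probe sets Afg3l2 was at -0.29 and close to the threshold (adjusted p = 0.0445). Spg7 had log2 signals of 7.06, 7.24, 6.95, 6.72 and 7.01 in CL livers, against 7.26, 7.64, 7.69, 7.47 and 7.21 in NC livers, and was called although 1 CL liver lay within the NC range (-0.46, SE 0.116, adjusted p = 0.00729). Lonp1, the Lon protease of the matrix, was not called (-0.23, SE 0.086, adjusted p = 0.0727), and neither was Yme1l1, the i-AAA protease (-0.02, SE 0.092, adjusted p = 0.937). Phb2, which forms the prohibitin ring that holds the m-AAA protease, had log2 signals of 10.7, 10.88, 10.64, 10.57 and 10.78 in CL livers, against 11.55, 11.17, 11.31, 11.3 and 11.36 in NC livers. No CL liver reached the NC range (-0.62, SE 0.098, adjusted p = 9.65e-05), and 3 of its 4 probe sets were called lower.

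**Figure D2:**
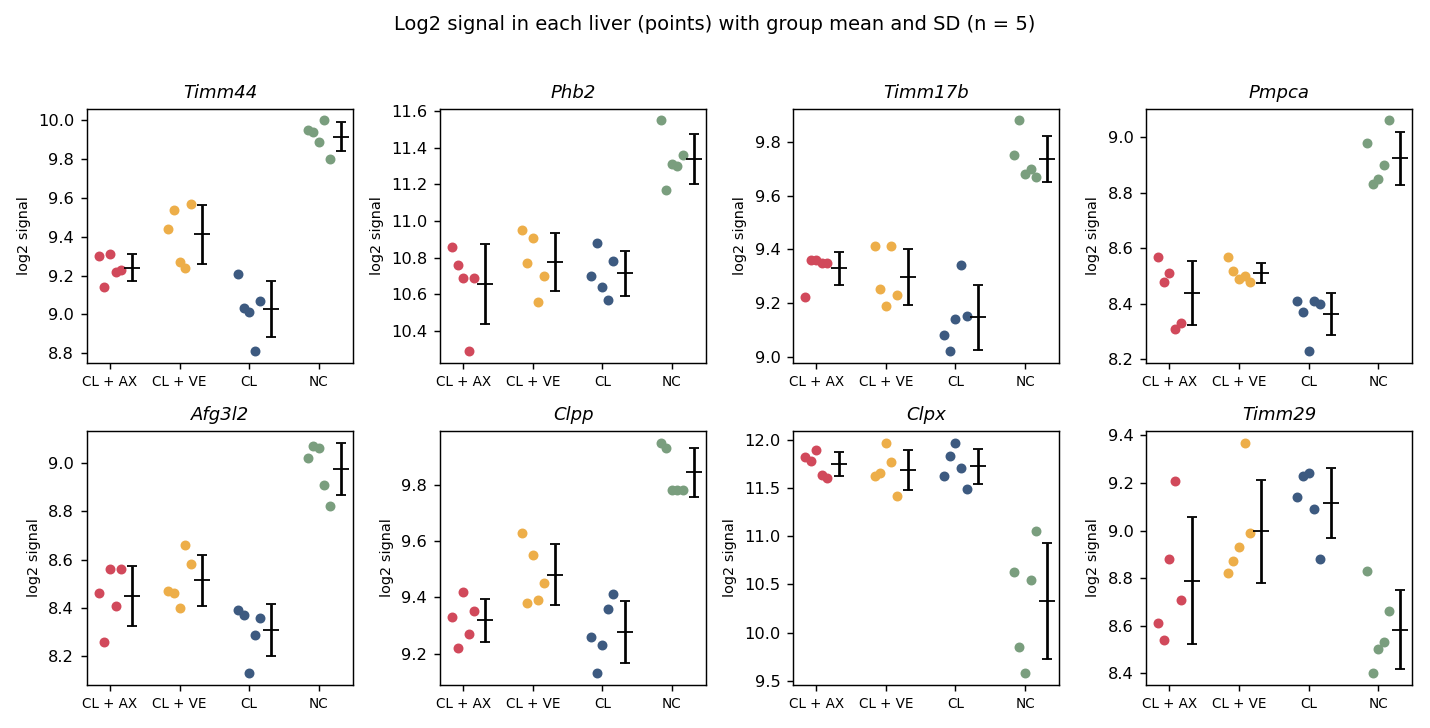
Log2 signal (vertical axis) of the 8 members with the largest called changes between CL and NC livers, 1 point per liver, with the group mean and SD to the right of each group (n = 5). Timm44, Phb2, Timm17b, Pmpca, Afg3l2 and Clpp lie lower in all 3 groups on the CL diet than in NC livers, and Clpx lies higher, with NC livers from 9.58 to 11.05.

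Of the 8 members with Tomm symbols, which were grouped by symbol only, 1 was called. It was Tomm70a, a receptor for carrier precursors, close to the threshold (-0.24, SE 0.082, adjusted p = 0.047). Tomm70a had log2 signals of 9.65, 9.63, 9.64, 9.78 and 9.69 in CL livers, against 10.09, 9.88, 9.74, 9.74 and 10.13 in NC livers, with partial overlap. Tomm40, the pore, was not called (-0.30, SE 0.151, adjusted p = 0.192), nor were Tomm20, Tomm22, Tomm34, Tomm40l and Tomm7, at -0.11 to 0.11. Tomm20l was among the dim members and was not called. Samm50, the core of the SAM complex that inserts barrel proteins, fell by 0.35 (SE 0.085, adjusted p = 0.00561).

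In the intermembrane space 2 of 9 members were called. Chchd4, the oxidoreductase that traps small proteins by disulfide bonds, fell by 0.37 (SE 0.071, adjusted p = 0.000735), with no overlap between the groups. Gfer, the sulfhydryl oxidase that reoxidizes it, was not called (-0.11, adjusted p = 0.495). Among the small Tim chaperones Timm10 had log2 signals of 9.77, 9.72, 9.95, 9.73 and 9.73 in CL livers, against 10.03, 10.05, 10.22, 10.02 and 9.83 in NC livers, and was called with overlapping groups (-0.25, SE 0.082, adjusted p = 0.0391). Timm8a1 had log2 signals of 10.07, 9.96, 10.47, 10.03 and 9.99 in CL livers, against 10.43, 10.48, 10.46, 10.39 and 10.02 in NC livers. CL replicate 3 read among the highest NC livers and NC replicate 5 among the CL livers, and the gene was not called (-0.25, SE 0.095, adjusted p = 0.0717). Timm8b, Timm9, Timm10b and Timm13 were at -0.10 to 0.17 and were not called, as was the dim Timm8a2.

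The TIM22 complex, which inserts carriers into the inner membrane, was represented by Timm22 and Timm29. Timm22, the channel, fell by 0.34 (SE 0.099, adjusted p = 0.0196), while Timm29, a subunit described in human cells, was called higher. Timm29 had log2 signals of 9.14, 9.23, 9.24, 9.09 and 8.88 in CL livers, against 8.83, 8.4, 8.5, 8.53 and 8.66 in NC livers, without overlap (0.53, SE 0.121, adjusted p = 0.00315). Its dimmer probe set read 6.57, 6.56, 6.55, 6.9 and 6.77 in CL livers, against 6.71, 6.44, 6.71, 6.59 and 7.08 in NC livers, which overlapped (-0.03, SE 0.127, adjusted p = 0.913). With the mean of both probe sets Timm29 was at 0.25 and was not called (adjusted p = 0.0868).

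The members called between CL and NC had 28 further probe sets in all, of which 22 had the same sign as the brightest one. Of the 22 with a mean signal at or above the median, 18 had the same sign, 12 were called with that sign, and none was called with the opposite sign. Among members that were not called the probe sets also disagreed. Tomm20 has 6 probe sets, of which the brightest was at 0.11 and 2 dimmer ones were called lower (-0.39, adjusted p = 0.00269, and -0.37, adjusted p = 0.0145). In Timm10b the brightest was at 0.17 and another was called lower (-0.36, adjusted p = 0.0012). In Yme1l1 the brightest was at -0.02 and another was called higher (0.36, adjusted p = 0.044). In Timm9 the brightest was at -0.10 and the dimmer one was called lower (-0.61, adjusted p = 0.00553).

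**Figure D3:**
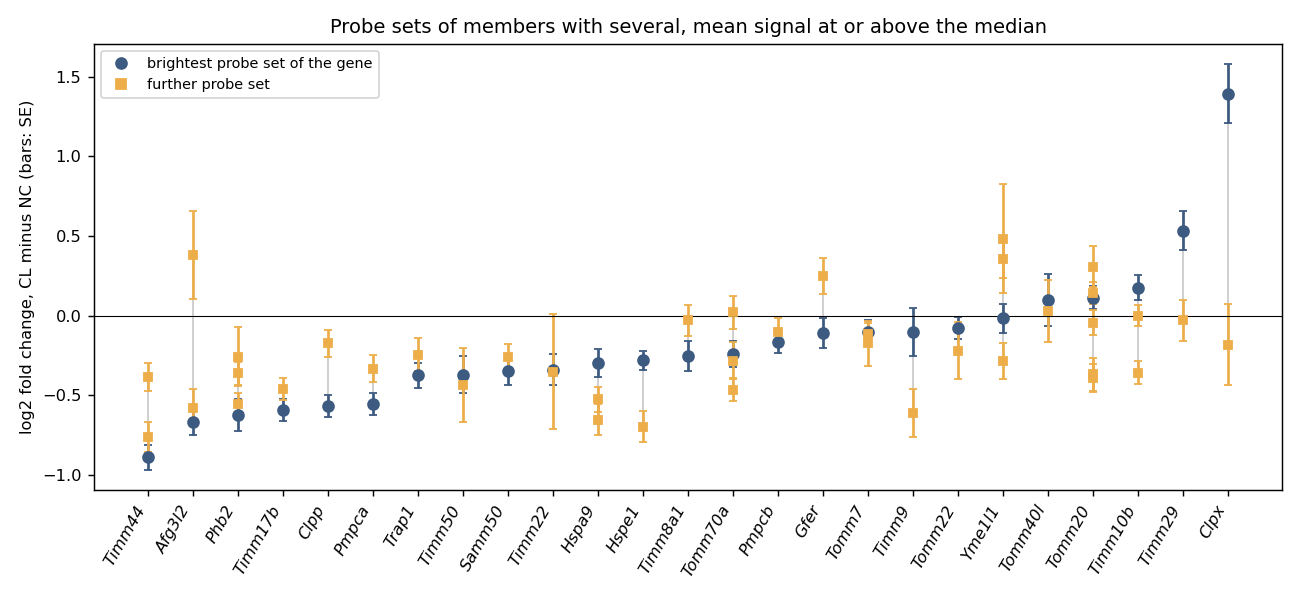
Log2 fold change of CL minus NC livers (vertical axis, bars SE) for each probe set with a mean signal at or above the median, in members that have several, ordered by the brightest probe set (circles, with further probe sets as squares). The probe sets of Timm44, Phb2, Timm17b and Pmpca lie together below 0, and the further probe sets of Clpx and Timm29 lie at -0.18 and -0.03, away from the brightest at 1.39 and 0.53.

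Start regions were examined for 34 of the 39 members, as windows from 250 bases before to 50 bases after the start in RefSeq (build GRCm38.p6). None was used for Afg3l2, Hspa9, Timm21, Tomm40l and Tomm7. Hspe1, Clpp and Clpx are shown, the first because it and Hspd1 share a start region and both fell, the others because they encode the subunits of ClpXP and differed in direction. They lie at chr1:55087898-55088197 (plus strand), chr17:56990014-56990313 (plus strand) and chr9:65294010-65294309 (plus strand). Capitals mark matches to the motifs searched, on either strand.
Hspe1: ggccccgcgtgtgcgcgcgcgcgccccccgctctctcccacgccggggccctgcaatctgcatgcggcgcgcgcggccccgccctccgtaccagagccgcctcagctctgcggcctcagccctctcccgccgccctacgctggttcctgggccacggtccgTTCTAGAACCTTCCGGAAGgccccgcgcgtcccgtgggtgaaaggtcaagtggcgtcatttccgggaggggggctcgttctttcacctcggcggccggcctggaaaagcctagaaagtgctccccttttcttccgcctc
Clpp: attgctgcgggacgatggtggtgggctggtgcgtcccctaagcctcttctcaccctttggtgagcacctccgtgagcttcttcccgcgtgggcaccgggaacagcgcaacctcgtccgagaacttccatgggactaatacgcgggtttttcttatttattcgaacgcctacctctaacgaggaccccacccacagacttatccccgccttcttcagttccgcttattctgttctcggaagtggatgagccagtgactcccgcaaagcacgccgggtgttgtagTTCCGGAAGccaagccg
Clpx: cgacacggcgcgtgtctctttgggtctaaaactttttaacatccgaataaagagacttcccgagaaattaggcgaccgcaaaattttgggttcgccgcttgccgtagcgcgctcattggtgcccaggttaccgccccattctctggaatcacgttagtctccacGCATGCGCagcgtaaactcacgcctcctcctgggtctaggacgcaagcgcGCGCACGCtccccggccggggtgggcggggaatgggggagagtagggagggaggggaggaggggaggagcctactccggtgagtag
In Hspe1 the capitals hold 3 overlapping matches to the heat shock element (GAANNTTC or TTCNNGAA, beginning at -89, -84 and -79 from the start) and a palindromic pair of matches to the ETS motif (CCGGAAG, at -80 and -77) that overlaps the last of them. One of the 2 listed windows of Hspd1, which runs on the minus strand, shares 285 bases with this window and so holds the same stretch. In Clpp a heat shock element match (at 34) and an ETS match (at 36) overlap downstream of the start. In Clpx the capitals are matches to the NRF1 core (GCGCANGC, at -86 and -36).

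Over the 34 members with a window, the ETS motif was found in 16 (47.1%), against 8.9% of all 32851 windows in the table. The heat shock element was found in 9 members (26.5%, against 15.1% of all windows), the NRF1 core in 7 (20.6%, against 10%), the E-box CACGTG in 7 (20.6%, against 7.2%), the YY1 motif AAGATGGCG in 1, Timm50 (2.9%, against 1.4%), and the composite CHOP and ATF4 motif TGATGNAA in none (against 4%). Of the 15 members with a window that were called lower in CL livers, 7 held the ETS motif and 4 the heat shock element. A match describes letters in this window only, and the windows of all genes include noncoding genes. A member was counted if any of its windows matched, while the share of all windows counts each window once. A member with several windows, such as Hspd1, therefore had more chances to match. The stretch shared by Hspe1 and Hspd1 was counted for both.

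Of 34 further import and quality control genes read, 6 (17.6%) were called lower and 2 (5.88%) higher in CL livers, with a median of -0.12. Among all genes read 11.3% were called lower and 12% higher, and among those at or above the median signal 16.9% and 17.6%. The share called lower was thus close to that of the brighter genes, and the share called higher was below it. Pam16, a partner of Timm44 in the import motor, fell by 0.58 (SE 0.069, adjusted p = 5.24e-06). Bnip3, a receptor for mitophagy, fell by 0.38 (SE 0.078, adjusted p = 0.00118). Fundc1, another mitophagy receptor, rose by 0.65 (SE 0.109, adjusted p = 0.000185), and Pitrm1, which degrades cleaved presequences, rose by 0.42 (SE 0.093, adjusted p = 0.00282). Dnajc11, Clpb, Immt and Romo1 were the remaining genes called lower, by 0.51, 0.38, 0.27 and 0.23.

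In the cytosol, 7 of 14 heat shock genes (50%) were called lower in CL livers and none higher, with a median of -0.45, against the 16.9% called lower and 17.6% called higher among genes at or above the median signal. Hspa1b, an inducible Hsp70, fell by 1.34 (SE 0.372, adjusted p = 0.014), Hsph1, its nucleotide exchange factor, fell by 1.05 (SE 0.238, adjusted p = 0.00317), and Hspa8, the constitutive Hsp70, fell by 0.54 (SE 0.09, adjusted p = 0.000167). A list of 16 genes drawn up for mitochondrial content held regulators such as Ppargc1a, Nrf1 and Gabpa beside genes such as Cs and Vdac1. Of these, 4 (25%) were called lower and 2 (12.5%) higher, with a median of -0.01, against the same 16.9% and 17.6%. Their summed signal was 42000 to 44300 in CL livers and 41200 to 44300 in NC livers, so these ranges overlapped. These are RNA signals, and mitochondrial content itself was not measured.

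The livers with a supplement were then set against the CL livers. Between CL + AX and CL, none of the 39 members was called, and the smallest adjusted p was 0.525. Over all probe sets 0.00222% were called (1 probe set). At an unadjusted p under 0.05 in limma, 4 members (10.3%) were higher and 2 (5.13%) lower, where 733 (4.03%) of the 18193 genes were higher and 731 (4.02%) lower. The unequal-variance test of the methods called none after adjustment, and the median fold change was 0.03, against 0.01 over all genes. Timm44 had log2 signals of 9.3, 9.14, 9.31, 9.22 and 9.23 in CL + AX livers, against 9.21, 9.03, 9.01, 8.81 and 9.07 in CL livers, which overlapped (0.22, 95% interval 0.06 to 0.38, adjusted p = 0.525). Timm17b had log2 signals of 9.22, 9.36, 9.36, 9.35 and 9.35 in CL + AX livers, against 9.08, 9.02, 9.14, 9.34 and 9.15 in CL livers (0.18, 95% interval 0.04 to 0.33, adjusted p = 0.559). The groups overlapped only through the CL liver at 9.34 and the CL + AX liver at 9.22.

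Timm29 had log2 signals of 8.61, 8.54, 8.88, 9.21 and 8.71 in CL + AX livers, against 9.14, 9.23, 9.24, 9.09 and 8.88 in CL livers (-0.33, 95% interval -0.58 to -0.08, adjusted p = 0.549). The CL + AX livers were scattered over both the CL and the NC range. Tomm70a had log2 signals of 9.82, 10, 9.93, 9.74 and 9.99 in CL + AX livers (0.22 relative to CL, 95% interval 0.05 to 0.39, adjusted p = 0.565), and Hspe1 had log2 signals of 11.31, 11.26, 11.28, 11.22 and 11.4 in CL + AX livers (-0.12 relative to CL, 95% interval -0.24 to -0.01, adjusted p = 0.676). Both overlapped the CL livers. Clpx had log2 signals of 11.82, 11.78, 11.89, 11.63 and 11.6 in CL + AX livers, within the CL range, and its difference was 0.02 (95% interval -0.36 to 0.41). By its further probe set the difference was 0.25, with overlapping groups.

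Between CL + VE and CL, no member was called either, and 0% of all probe sets were. At an unadjusted p under 0.05 in limma, 6 members (15.4%) were higher and none lower, where 883 (4.85%) of all genes were higher and 491 (2.7%) lower. The unequal-variance test called none after adjustment, and the median was 0.06 against 0.03 over all genes. The smallest adjusted p, 0.133, belonged to Timm44, with log2 signals of 9.44, 9.54, 9.27, 9.24 and 9.57 in CL + VE livers, against 9.21, 9.03, 9.01, 8.81 and 9.07 in CL livers. All CL + VE livers were above all CL livers (0.39, 95% interval 0.23 to 0.55), and all were below the lowest NC liver, at 9.8. Clpp had log2 signals of 9.63, 9.38, 9.55, 9.39 and 9.45 in CL + VE livers, which overlapped those of CL livers (0.20, 95% interval 0.05 to 0.34, adjusted p = 0.464).

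Afg3l2 had log2 signals of 8.47, 8.46, 8.4, 8.66 and 8.58 in CL + VE livers, each above every CL liver (0.21, 95% interval 0.04 to 0.37, adjusted p = 0.519). Spg7 had log2 signals of 7.51, 7.22, 7.15, 7.35 and 7.15 in CL + VE livers (0.28 relative to CL, 95% interval 0.04 to 0.52, adjusted p = 0.574), and Timm17b had log2 signals of 9.41, 9.25, 9.19, 9.41 and 9.23 in CL + VE livers (0.15 relative to CL, 95% interval 0.01 to 0.30, adjusted p = 0.627). Both overlapped the CL livers. Clpx had log2 signals of 11.62, 11.65, 11.97, 11.77 and 11.42 in CL + VE livers, a difference of -0.04 from CL (95% interval -0.42 to 0.35). By its further probe set the difference from CL was -0.49, and that of CL + AX from CL + VE was 0.735. The groups overlapped in both. The scaling mattered for the smaller of the differences from CL. With the signals as deposited, Clpp, Afg3l2 and Timm17b were at -0.02, -0.02 and -0.06 relative to CL. The median SE of the members was 0.085.

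**Figure D4:**
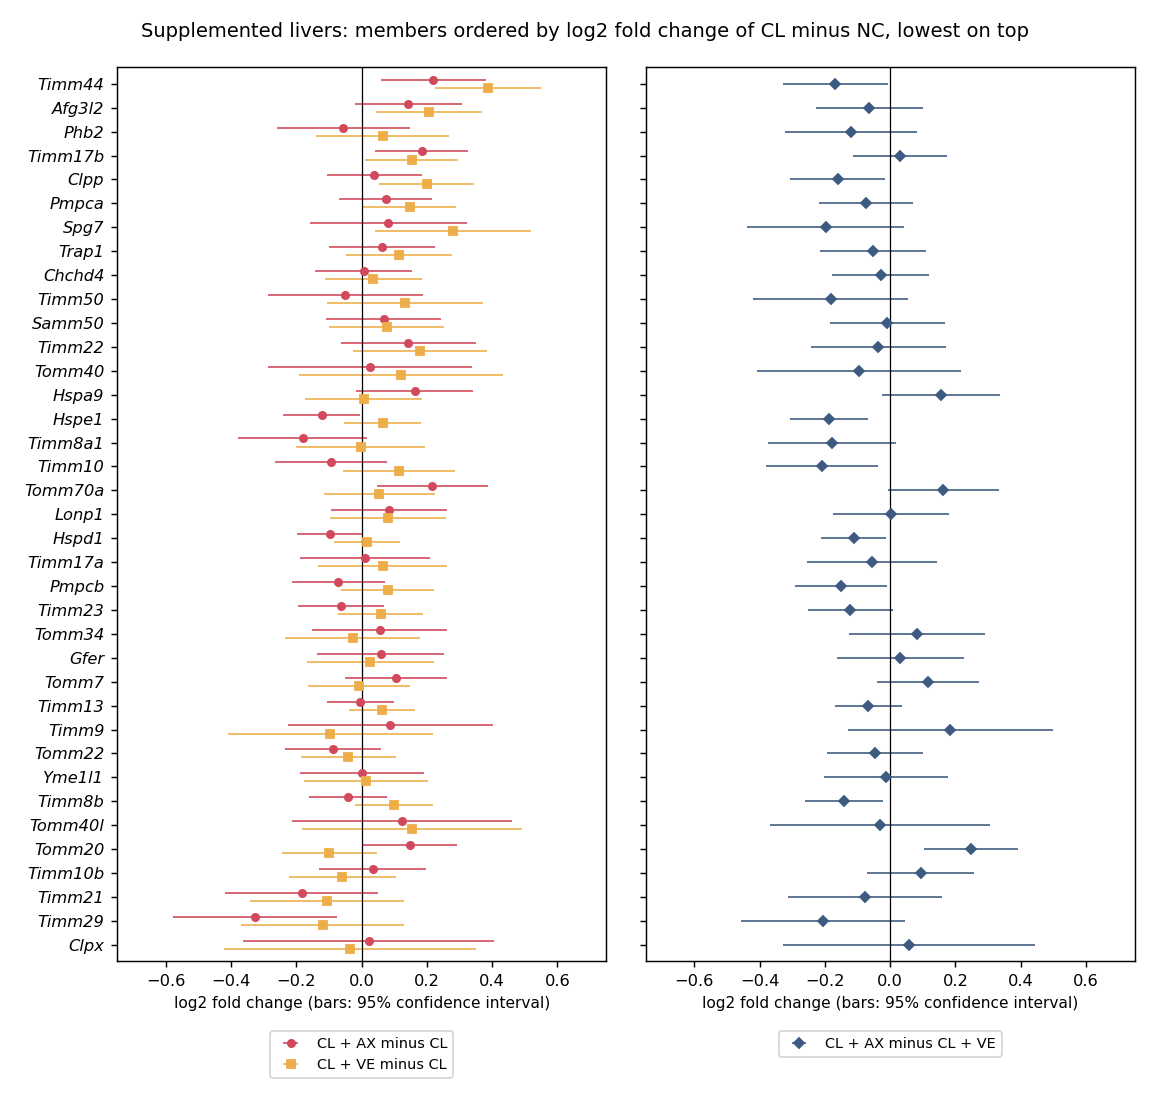
Log2 fold change (horizontal axes) with its 95% confidence interval for the 37 members with a mean signal at or above the median, CL + AX and CL + VE each minus CL on the left, and CL + AX minus CL + VE on the right. Members are ordered by the fold change of CL minus NC with the lowest on top, and no member was called in any of these comparisons. Timm44 is at 0.22 and 0.39 on the left.

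Astaxanthin, a carotenoid, and vitamin E, a tocopherol, were fed at the same share of the diet, and 1 pair of groups was compared directly. Between CL + AX and CL + VE, no member was called, with 0.00222% of all probe sets called. At an unadjusted p under 0.05 in limma, 1 member (2.56%) was higher in CL + AX and 7 (17.9%) were lower, where 665 (3.66%) of all genes were higher and 1199 (6.59%) lower. The unequal-variance test called none after adjustment, and median centring called 10, all lower in CL + AX. After quantile normalization the median was -0.06 against -0.02 over all genes. Tomm20, a presequence receptor, had log2 signals of 12.02, 11.93, 11.84, 11.8 and 11.93 in CL + AX livers, against 11.59, 11.62, 11.73, 11.57 and 11.78 in CL + VE livers, which did not overlap (0.25, 95% interval 0.10 to 0.39, adjusted p = 0.241). With median centring it was at -0.07, so its direction depended on the scaling. Hspe1 had log2 signals of 11.31, 11.26, 11.28, 11.22 and 11.4 in CL + AX livers, against 11.48, 11.42, 11.6, 11.42 and 11.5 in CL + VE livers, also without overlap (-0.19, 95% interval -0.31 to -0.07, adjusted p = 0.276). Hspd1 had log2 signals of 11.98, 12.04, 12.05, 12.02 and 12.01 in CL + AX livers, against 12.09, 12.12, 12.23, 12.13 and 12.11 in CL + VE livers, and here too all CL + AX livers were lower (-0.11, 95% interval -0.21 to -0.01, adjusted p = 0.496).

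Timm10 had log2 signals of 9.64, 9.77, 9.72, 9.61 and 9.67 in CL + AX livers, against 9.98, 9.74, 10.18, 9.8 and 9.78 in CL + VE livers, with overlap (-0.21, 95% interval -0.38 to -0.04, adjusted p = 0.44). Timm8b had log2 signals of 9.11, 9.1, 9.12, 9.19 and 9.19 in CL + AX livers, against 9.35, 9.26, 9.33, 9.24 and 9.25 in CL + VE livers, which lay just apart (-0.14, 95% interval -0.26 to -0.02, adjusted p = 0.471). The differences of Hspe1, Hspd1, Timm10 and Timm8b were above 0 with the signals as deposited, at 0.06, 0.13, 0.12 and 0.19, and the CL + AX arrays had the highest raw signals. With median centring all 4 were called lower in CL + AX, at -0.49, -0.42, -0.43 and -0.35 (adjusted p = 0.00617, 0.00908, 0.00979 and 0.0264), where the median of all genes was itself at -0.167. Both the direction and the call of these members therefore depended on the scaling. The intervals leave room for differences of the sizes given, so a lack of calls does not show that the supplements act alike.

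Set against NC, the supplemented groups share their NC livers with the CL comparison, and each has its own values. Between CL + AX and NC, 17 members were called lower and 2 higher, where 8.17% of all probe sets were called lower and 9.06% higher. Among the genes with a mean signal at or above the median, 17.1% were called lower and 17.7% higher, against 45.9% and 5.41% of such members. The median was -0.18, against -0.02 over all genes. With the signals as deposited, 12 members were called higher and 1 lower. The median of all genes was then itself 0.602 above 0, and the members' median was -0.297 relative to it. Clpx was at 1.41 (SE 0.186, adjusted p = 1.45e-05) by its brightest probe set and at 0.07 by the further one. With the mean of both it was at 0.74 (adjusted p = 0.00913), and the unequal-variance test did not call it (adjusted p = 0.0563). Timm44 was at -0.67 (SE 0.078, adjusted p = 3.67e-06) and Phb2 at -0.68, with log2 signals of 10.86, 10.76, 10.69, 10.29 and 10.69 in CL + AX livers. Afg3l2 had log2 signals of 8.46, 8.26, 8.56, 8.41 and 8.56 in CL + AX livers (-0.53), Clpp 9.33, 9.22, 9.42, 9.27 and 9.35 (-0.53) and Pmpca 8.57, 8.48, 8.51, 8.31 and 8.33 (-0.48), all of them below every NC liver. Afg3l2 was at -0.27 with the mean of its probe sets and was not called (adjusted p = 0.0642). Timm8a1 had log2 signals of 9.95, 9.95, 9.87, 10.01 and 9.82 in CL + AX livers, lower than every NC liver (-0.43, adjusted p = 0.00232). The unequal-variance test did not call Timm8a1 (adjusted p = 0.0505). With the signals as deposited none of Timm44 (-0.22, adjusted p = 0.17), Clpp (-0.08, adjusted p = 0.687), Timm8a1 (-0.04, adjusted p = 0.828), Afg3l2 (0.001, adjusted p = 0.995) and Pmpca (0.044, adjusted p = 0.839) was called.

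Tomm20 was called higher in CL + AX than in NC livers (0.26, SE 0.07, adjusted p = 0.0107), with log2 signals of 12.02, 11.93, 11.84, 11.8 and 11.93 in CL + AX livers, against 11.68, 11.74, 11.49, 11.54 and 11.77 in NC livers. This call did not hold under other scalings, with -0.29 under median centring (adjusted p = 0.033) and -0.01 under trimmed-mean scaling. It was also lost with the mean of the probe sets (0.05, adjusted p = 0.588), with no variance trend (adjusted p = 0.0546) and under the unequal-variance test (adjusted p = 0.0575). Tomm20 in CL livers read 11.57, 11.73, 11.78, 11.85 and 11.85. The livers at 11.57 and 11.73 lay within the NC range and the others above its highest value, 11.77.

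Between CL + VE and NC, 12 members were called lower and 2 higher, where 5.9% of all probe sets were called lower and 7.19% higher. Among the genes with a mean signal at or above the median, 10.9% were called lower and 15.1% higher, against 32.4% and 5.41% of such members. The median was -0.15, against 0.002 over all genes. With the signals as deposited, 2 members were called higher and 2 lower. The median of all genes was then itself 0.193 above 0, and the members' median was -0.185 relative to it. Clpx was at 1.36 (SE 0.186, adjusted p = 4.66e-05) by its brightest probe set and at -0.67 by the further one. With the mean of both the call was lost (0.34, adjusted p = 0.275), as it was under the unequal-variance test (adjusted p = 0.0826). Timm44 was at -0.50 (SE 0.078, adjusted p = 0.000162). Phb2 had log2 signals of 10.95, 10.77, 10.91, 10.56 and 10.7 in CL + VE livers (-0.56) and Pmpca 8.57, 8.52, 8.49, 8.5 and 8.48 (-0.41), all below every NC liver. Timm17b was at -0.44, Afg3l2 at -0.46 and Clpp at -0.37. These 3 and Pmpca were not called with the signals as deposited, at -0.32, -0.29, -0.25 and -0.24 (adjusted p = 0.195, 0.255, 0.321 and 0.362). Afg3l2 was at -0.13 with the mean of its probe sets and was not called (adjusted p = 0.437). Timm29 had log2 signals of 8.82, 8.87, 8.93, 9.37 and 8.99 in CL + VE livers and was called higher (0.41, SE 0.121, adjusted p = 0.0257), a call that was lost without CL + VE replicate 4 (0.32, adjusted p = 0.0853) and without NC replicate 2, 3 or 4. It was also lost with the mean of both probe sets (0.25, adjusted p = 0.0992), with no variance trend (adjusted p = 0.0666) and under the unequal-variance test (adjusted p = 0.114). All 4 matrix chaperones were called lower in CL + VE livers, and 3 of 4 in CL + AX livers.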

How the data were processed

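Per the labels and the methods, RNA from each of 20 frozen livers was labelled as biotin aRNA with a 3' IVT kit and hybridized to 1 array. The authors computed MAS5 signals, and the deposited intensity values, 1 per probe set and array, are linear and were not scaled to a common level. Here 64 control probe sets were removed, log2 signals were quantile normalized, and the remaining 45037 were fitted with limma 3.58.1 (R 4.3.3) in 1 model of the 4 groups (16 residual degrees of freedom, two-sided, variance trend). The members and gene lists were chosen with earlier results of these data known. Per contrast, up to 6 members in each direction with the largest called change were named, or the 5 smallest p where none was called. The fit was also run on simulated data with independent noise in every value. That setting is simpler than these arrays and says little about single calls. Signals as deposited, median centring, trimmed-mean scaling, an offset of 8, a signal filter, no variance trend, the methods' t-test, only the arrays of the groups compared, array weights, a replicate block, the mean of a gene's probe sets and leaving out each array were the alternatives. The labels name separate mice. The number of arrays limits the precision, and the closest pair of arrays correlated at 0.9396. No array was left out.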

Additional observations from a re-analysis of the deposited data

Results flagged for a closer look

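Among 64 groups of 5 livers tested for the 16 named members, 6 held a liver far from the other 4, with a gap above Dixon's critical value of 0.71 of the group's range, where chance gives about 1 in 20. CL replicate 3 accounted for 3 of them: Timm8a1 at 10.47 on the log2 scale (the other CL livers 9.96 to 10.07), Timm10 at 9.95 (9.72 to 9.77) and Pmpca at 8.23 (8.37 to 8.41). The others were Timm8a1 at 10.02 in NC replicate 5 (10.39 to 10.48 in the other NC livers), Timm17b at 9.22 in CL + AX replicate 1 (9.35 to 9.36) and Hspd1 at 12.23 in CL + VE replicate 3 (12.09 to 12.13). The cause of these values was not tested.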

How the results depend on the processing

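Between CL and NC, 19 members were called. With the signals as deposited 8 were called (6 higher, 2 lower), and the median of all genes was then 0.389 above 0, with the members at -0.28 relative to it. The methods' t-test called 10 (1 higher, 9 lower), and the mean of all probe sets left 1 higher. Leaving out 1 liver at a time gave 15 to 20 calls, 2 of them higher each time and 13 to 18 lower. Between CL + AX and NC, the signals as deposited gave 12 higher and 1 lower, where the median of all genes was itself 0.602 above 0. Median centring gave 30 calls (1 higher, 29 lower), where the median of all genes was itself at -0.173. The methods' t-test called 11 (1 higher, 10 lower), and trimmed-mean scaling, no variance trend and the mean of probe sets left 1 higher each. Without 1 liver there were 16 to 20 calls, 2 to 3 higher and 14 to 18 lower. Between CL + VE and NC, the signals as deposited gave 4 calls (2 lower), no variance trend 8 (1 higher, 7 lower), the methods' t-test 9 (0 higher), and the mean of probe sets 0 higher. Without 1 liver there were 11 to 15 calls, 1 to 2 higher and 10 to 13 lower. Between CL + AX and CL + VE, median centring called 10 members, all lower in CL + AX, where the median of all genes was itself at -0.167. No member was called between CL + AX and CL or between CL + VE and CL when a liver was left out. Signs turned with the signals as deposited for CL + VE against CL in Clpp (-0.018), Afg3l2 (-0.018) and Timm17b (-0.064), for CL + AX against CL + VE in Hspe1 (0.061), Timm10 (0.12), Timm8b (0.19) and Hspd1 (0.13), and for CL + AX against NC in Afg3l2 (0.001) and Pmpca (0.044). Tomm20 turned under median centring (-0.074 against CL + VE and -0.29 against NC) and trimmed-mean scaling (-0.006 against NC). The cause was not tested.

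For the replicate numbers, each liver was taken as its deviations from the mean of its group. The correlations are therefore not those of whole arrays. Between livers with the same replicate number in different groups the deviations correlated at -0.2 to 0.312. The median of these correlations was 0.038, against -0.005 for livers with different numbers. Of 20 livers, 9 correlated best with a liver of their own number, a count that was not set against a chance level. Whether the numbers pair the livers was not tested. With the number as a replicate block 2 members were called higher and 19 lower between CL and NC, 2 and 17 between CL + AX and NC, 2 and 13 between CL + VE and NC, and 0 in the other comparisons. The values of Timm8a2 and Tomm20l, below the median signal, spread too widely to be read as differences.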
